A study of Mus musculus with 20 samples.

Results

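Wild-type mouse footpad skin was followed over the first days after birth, from postnatal day 1 (P1) to day 3 (P3) and day 5 (P5). The course rests on 6 two-colour arrays, 2 per stage, of 20 arrays in the whole series, chosen by their titles. All 6 carried RNA from microdissected footpads of wild-type (WT) mice of the C57BL6/J strain, with no treatment named, and the labels call the 2 arrays of a stage biological replicates. The number and sex of the animals behind a sample are not given in the sources used here. Tabby mice of the same strain and ages, whose ectodysplasin A gene is mutated, gave 6 arrays for comparison, and arrays from before birth (E17.5) and of adults at day 56 are used only to place the neonatal values.

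The footpad is where the mouse carries its eccrine sweat glands, which grow down from the epidermis as buds around birth and form a duct and a secretory coil in the days that follow. Ectodysplasin A is a ligand of the tumour necrosis factor family that acts on skin epithelium through its receptor Edar and the transcription factor NF-kappaB. Without it the footpad glands do not form, so that footpad skin of Tabby mice serves as skin without these glands at the same ages. Over the same days the epidermis, nerves, muscle and vessels of the pad also mature.

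Each value is the log2 ratio of footpad RNA (Cy3) over a common reference RNA (Cy5) pooled from mouse cell lines, so 0 means equal signal and 1 means a 2-fold higher footpad signal. A probe is called where limma's test gave a Benjamini-Hochberg adjusted p under 0.05 over the 29220 probes tested. The probes carry only Z-numbers and 60-base sequences, and no gene table of this array was used, so most results are given by probe. Marker genes of skin, gland, muscle or nerve could not be looked up by name, and the labelled tissue was not checked against them. In whole tissue, fewer cells of a type and less RNA per cell cannot be told apart.

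Between 66% and 69.7% of probes on the 6 arrays were well above background in Cy3. Precision is limited by there being 2 arrays a stage. Across the tested probes, the correlation of the 2 arrays of a stage was 0.978 at P1, 0.987 at P3 and 0.986 at P5. The SD of the difference between the 2 arrays was 0.373 at P1, 0.281 at P3 and 0.289 at P5, so the P1 arrays stood further apart than those of either later stage. Correlations between arrays of different stages were 0.949 to 0.957 for P1 with P3, 0.937 to 0.948 for P1 with P5, and 0.973 to 0.977 for P3 with P5. Per the file headers, the 3 stages were scanned on 1 day, but each stage was a slide of its own, so stage and slide cannot be told apart.

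The largest changes are shown first by the sequences of their probes, since these identify the transcripts. Among the probes that fell most, 3 overlap one another in sequence and so read the same or closely similar transcripts. The capitals mark the 26 bases that all 3 share.
Z00075199-1: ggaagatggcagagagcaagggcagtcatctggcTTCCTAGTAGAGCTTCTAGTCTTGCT
Z00023905-1: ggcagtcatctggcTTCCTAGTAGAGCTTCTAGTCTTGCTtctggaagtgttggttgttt
Z00057869-1: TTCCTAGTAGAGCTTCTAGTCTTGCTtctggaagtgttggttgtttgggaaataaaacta

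Of the probes that rose most, 2 overlap in the same way, and the capitals mark their 32 shared bases.
Z00025964-1: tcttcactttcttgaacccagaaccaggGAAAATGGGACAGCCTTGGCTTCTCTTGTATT
Z00047655-1: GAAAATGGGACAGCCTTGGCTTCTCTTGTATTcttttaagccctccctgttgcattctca

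The other probes with the largest changes among the stages, or between the WT and the Tabby course, share no such stretch with another tested probe. They are given in lower case throughout, first those that rose and then those that fell.
Z00055556-1: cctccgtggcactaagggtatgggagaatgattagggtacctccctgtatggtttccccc
Z00025250-1: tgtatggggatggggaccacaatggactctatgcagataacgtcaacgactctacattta
Z00053387-1: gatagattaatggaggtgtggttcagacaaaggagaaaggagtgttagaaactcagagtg
Z00053032-1: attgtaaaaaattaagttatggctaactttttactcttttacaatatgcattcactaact
Z00056321-1: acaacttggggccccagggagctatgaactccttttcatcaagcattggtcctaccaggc
Z00041252-1: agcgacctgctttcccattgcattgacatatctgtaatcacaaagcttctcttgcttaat
Z00056665-1: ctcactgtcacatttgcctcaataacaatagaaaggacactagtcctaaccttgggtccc
Z00024658-1: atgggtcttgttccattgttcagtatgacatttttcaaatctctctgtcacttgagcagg
Z00074337-1: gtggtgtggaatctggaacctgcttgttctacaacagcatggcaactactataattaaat
Z00067289-1: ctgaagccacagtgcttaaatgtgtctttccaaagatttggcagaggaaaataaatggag
Z00072860-1: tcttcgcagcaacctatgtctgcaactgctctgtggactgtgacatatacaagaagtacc
Z00025066-1: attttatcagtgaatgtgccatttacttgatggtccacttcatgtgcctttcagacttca
Z00066358-1: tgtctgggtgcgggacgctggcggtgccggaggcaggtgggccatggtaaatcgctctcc

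From P1 to P3, footpad skin already differed in a large share of its transcripts, in both directions and mostly by less than 2-fold. Of 29220 probes, 4776 were higher and 4206 lower at P3 than at P1, together 30.7% of those tested. At least 2-fold changes numbered 484 upward and 532 downward (3.48% of probes tested), and at least 4-fold changes 68 upward and 109 downward. The median size of a called change was 0.48 log2 units. Fitted on the 6 WT arrays alone, without the Tabby arrays of the same slides, the test called 5595 probes, and without 1 of the P3 arrays it called 4698 or 5013.

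**Figure D1:**
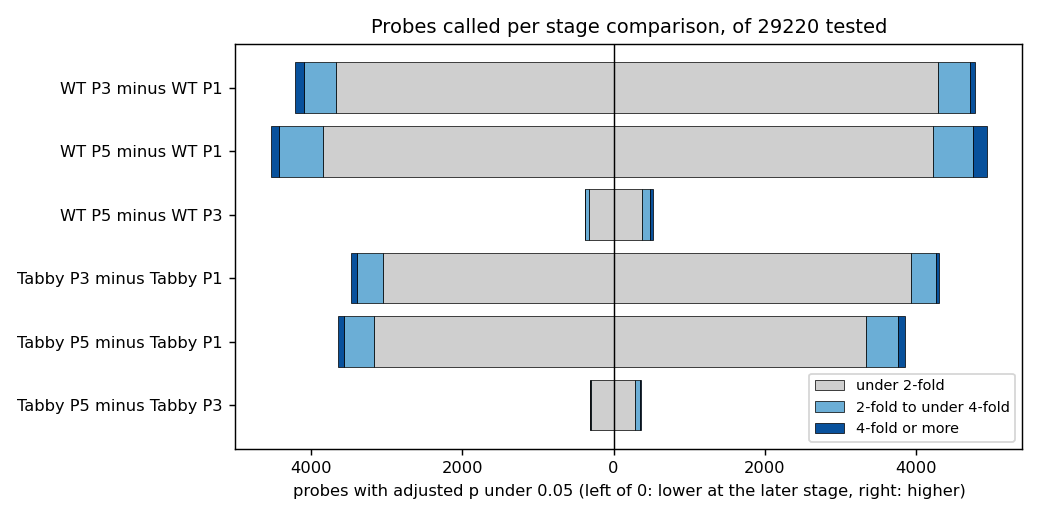
Number of probes called (x axis) in each stage comparison (y axis) for the WT and the Tabby arrays, with probes higher at the later stage to the right of 0 and lower ones to the left. Shades split the calls by size. Comparisons with P1 have 7493 to 9456 calls, while P5 against P3 has 907 in WT and 678 in Tabby.

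The overlapping pair gave the largest P1 to P3 rises. Z00025964-1 read 0.17 on both P1 arrays, 5.66 and 5.56 on the P3 arrays, and 6.13 and 6.02 on the P5 arrays. Its P3 minus P1 difference was 5.44 ± 0.39 (SE of limma's fit, n = 2 arrays per stage, adjusted p = 0.000207), a 43.5-fold ratio. For Z00047655-1 the arrays read -0.18 and -0.16 at P1, 5.07 and 4.93 at P3, and 6.50 and 6.34 at P5. This is a rise of 5.17 ± 0.09 by P3 (adjusted p = 2.65e-07), and the later increase from P3 to P5, by 1.42 ± 0.09, was also called by limma (adjusted p = 0.000419). Both probes were above background on all 6 arrays, and no array of a later stage overlapped those of P1. The third largest riser, Z00055556-1, had no P1 array above background, with ratios of -3.24 and -1.51 there, 2.64 and 2.30 at P3, and 3.65 and 3.46 at P5. Where a stage had no array above background, a ratio has no firm lower end. The Cy3 signal is then set against the lowest signal above background on each array, which gives at least 4.07-fold for Z00055556-1 from P1 to P3 and at least 9.57-fold from P1 to P5.

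Downward, Z00024658-1 had the largest P1 to P3 change by the ratio. It read 5.37 and 5.49 at P1, -1.57 and -0.05 at P3, and -0.91 and 0 at P5, with no array above background at either later stage. The fitted difference was -6.25 ± 0.70 (limma adjusted p = 0.000811), and the Cy3 signal was at least 4.57-fold lower. The rank turns with the processing: with normexp and loess the difference was -2.50 for Z00024658-1 and -4.14 for Z00075199-1, which was measured at both stages, and in Cy3 alone -2.11 and -3.89. Z00074337-1 fell likewise, from 4.66 and 5.65 at P1 to 0 and 0.26 at P3 and 0 on both P5 arrays, at least 2.56-fold in Cy3 (adjusted p = 0.000151). Its E17.5 arrays, on another slide and scan day, read 6.15 and 6.10 in WT and 6.74 and 6.76 in Tabby. Both probes were thus high on every P1 array and not above background on any P3 array. Unlike Z00074337-1, Z00024658-1 was not above background at E17.5, at -0.04 and -2.12 in WT and -1.78 and -2.04 in Tabby. The adult arrays of Z00024658-1 read -1.46 and 1.70 in WT, not above background, and 6.17 and 2.74 in Tabby.

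The group of 3 overlapping probes fell from P1 to P3 and had lost most of its signal by P5. Z00075199-1 read 4.43 and 4.31 at P1, -0.96 and -0.61 at P3, and -3.23 and -2.47 at P5. Z00023905-1 read 3.40 and 3.39, then -1.20 and -0.62, then -3.31 and -3.47. Z00057869-1 read 3.26 and 3.24, then -0.61 and -0.44, then -4.30 and -3.91. All were above background on the P1 and P3 arrays, and the P3 minus P1 differences were -5.15, -4.31 and -3.78 in the same order, all called. At P5, 1 array was above background for Z00075199-1 and 0 for the other two, so the size of the later fall is not measured. In Cy3 it was at least 1.47-fold for Z00023905-1 and at least 1.7-fold for Z00057869-1. Since the 3 probes share bases, they read the same or closely similar transcripts and are not counted as 3 separate results. Their WT arrays of E17.5 read 6.89 and 7.06 for Z00075199-1, 3.83 and 3.80 for Z00023905-1, and 3.53 and 3.52 for Z00057869-1. In adult WT skin they read -2.20 and -1.53, -2.38 and -2.25, and -2.46 and -2.17. Z00075199-1 was thus already lower at P1 than at E17.5, while the other two differed little over that step, and all 3 were far lower at P5 and in adults than at P1.

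**Figure D2:**
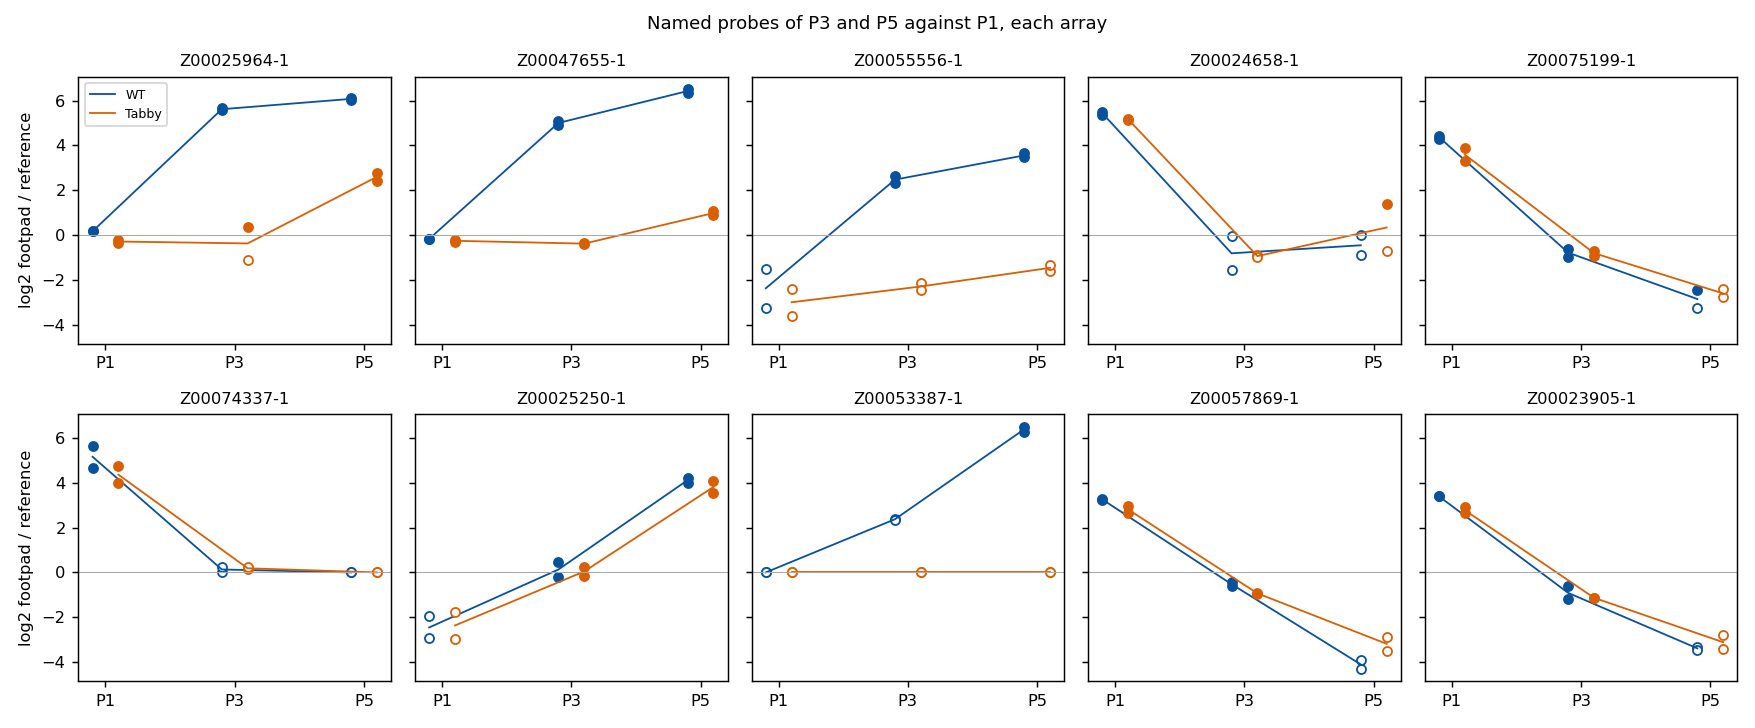
Log2 ratio of footpad over reference (y axis) on each array at P1, P3 and P5 (x axis) for the probes with the largest P3 or P5 against P1 changes. Points are arrays, filled where Cy3 was well above background and open where not, and lines join the means of the 2 arrays, blue for WT and orange for Tabby. The probes that fell did so in both genotypes, whereas Z00047655-1 reached 6.50 and 6.34 in WT and 0.88 and 1.08 in Tabby at P5.

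By P5 the difference from P1 covered slightly more probes and held more large rises. At P5, 4932 probes were higher and 4524 lower than at P1, together 32.4% of those tested. At least 2-fold changes numbered 710 upward and 690 downward (4.79%), and at least 4-fold changes 179 upward and 109 downward. The P3 and P5 comparisons share the 2 P1 arrays, so their counts are not separate evidence. On the 6 WT arrays alone 6038 probes were called, and without 1 of the P5 arrays 5042 or 5575.

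Among the probes that rose to P5, Z00047655-1 had the largest difference, 6.59 ± 0.09 (limma adjusted p = 1.66e-08). Z00025250-1 followed a steadier course, with -1.96 and -2.94 at P1, -0.23 and 0.48 at P3, and 4.23 and 4.00 at P5. That is a difference of 6.57 ± 0.46 (limma adjusted p = 0.000104), at least 8.26-fold in Cy3 since neither P1 array was above background. Tabby arrays took the same course, from -2.95 and -1.78 at P1 to 3.54 and 4.08 at P5, and adult arrays read 5.34 and 5.59 in WT. Z00053387-1 was at 0 on both P1 arrays, at 2.40 and 2.35 at P3 and at 6.49 and 6.27 at P5, at least 4.46-fold in Cy3 from P1 to P5. On all 6 Tabby arrays it was at 0.

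A ratio of exactly 0 needs care. Of 350628 values of tested probes on the 12 neonatal arrays, 832 were exactly 0, in 224 probes, and in all 832 neither dye was well above background. For 821 of them the scanner software had put a substitute in place of both dyes' signals, so the 0 is not a measured ratio. Repeated zeros make the spread of that probe look smaller than a measured one. They bear on few of all calls, 60 of 9456 for P5 against P1, but on 51 of the 288 changes of at least 4-fold. With only the 24065 probes above background in both dyes on all 12 arrays, an alternative chosen after seeing the data, 9329 probes were called for P5 against P1.

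The step from P3 to P5 had the fewest calls and the smallest median difference. Only 527 probes were higher and 380 lower at P5 than at P3, 3.1% of those tested, with 146 at least 2-fold up and 54 at least 2-fold down (0.684%). At least 4-fold changes were 51 upward and 4 downward. The count depended on the arrays that set the spread: 139 probes were called with the 6 WT arrays alone, 145 to 206 without 1 of the P3 or P5 arrays, and 1727 with either P1 array left out. Without the Tabby arrays, 83.5% of the calls were upward, against 58.1% with them. The median absolute difference over all tested probes was 0.126 log2 units, beside 0.229 for P3 and 0.232 for P5 against P1. Between the 2 arrays of a stage it was 0.183 at P1, 0.0766 at P3 and 0.0796 at P5. This favours larger differences against P1. The fit takes 1 spread per probe for all groups, which favours calls against P1 over calls between P3 and P5.

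By the ratio, the largest P3 to P5 rises were those of Z00053032-1 and Z00056321-1, which had no signal above background until P5. Z00053032-1 was at 0 on all 4 arrays of P1 and P3 and at 6.09 on both P5 arrays. Z00056321-1 was likewise at 0 on those 4 arrays and at 6.28 and 5.05 at P5. Against P3 these rises were at least 3.83-fold and at least 4.34-fold in Cy3, and with 4 of 6 ratios being written zeros their limma p-values rest on a spread that was not measured. Z00041252-1 had a measured base, above background on all 6 arrays. It read -0.67 and -0.13 at P1, -0.09 and -0.35 at P3, and 4.93 and 4.80 at P5, a rise of 5.08 ± 0.27 from P3 (33.9-fold, limma adjusted p = 0.000137). In Cy3 alone its rise of 3.88 was above the 1.94 of Z00053032-1 and the 2.06 of Z00056321-1, so the order by the ratio rests on the zeros. Each of these 3 probes was thus on at P5 and at its base level at both earlier stages.

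Beyond the overlapping group above, Z00067289-1 had the largest P3 to P5 fall by the ratio. It read 3.06 and 3.32 at P1, 3.46 and 3.89 at P3, and 1.16 and 1.89 at P5, where it was no longer above background. The difference was -2.15 ± 0.36 (limma adjusted p = 0.0242), at least 1.39-fold in Cy3. This call was lost when any 1 of the P3 or P5 arrays was left out (adjusted p of 0.0569 to 0.146), and with the 6 WT arrays alone (adjusted p = 0.0768).

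Detection gives a second view that does not use the ratio. At P1, 27413 of 42006 probes were well above background on both WT arrays, 1643 on 1 and 12950 on neither, and the numbers on both were 27607 at P3 and 27430 at P5. From P1 to P5, 318 probes went from neither array to both, and 200 went from both to neither. For P1 to P3 these numbers were 304 and 251, and for P3 to P5 they were 191 and 94. Of the 318 gained by P5, 154 were on both P3 arrays, 54 on 1 and 110 on neither, so the gains fell on both steps. Of the 200 lost by P5, 130 were already on neither P3 array. A P5 minus P1 difference was called for 183 of the 318 and 118 of the 200, beside 32.4% of all tested probes. The choice by detection at P1 and P5 favours such calls, and the rest switched without a called change. In adult WT skin, 151 of the 318 gained probes were on both arrays and 99 on neither. Over all probes, 72.1% and 67.4% were above background on the 2 adult WT arrays. Probes on 1 array of a stage and not on the other numbered 1433 to 2132, which is the scale on which 1 array can decide such a status.

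Tested over the 3 stages together, limma's F test called 10111 probes (34.6% of those tested), 13573 at an unadjusted p under 0.05. By the means of the 2 arrays, 2379 of these rose at both steps and 2382 fell at both steps. A further 2511 were lowest at P1 and highest at P3, and 2048 were highest at P1 and lowest at P3. P1 was therefore the lowest or the highest stage for nearly all called probes. P1 lay between the other stages for 444 with P3 lowest (4.39% of those called, 9.67% of all tested) and for 347 with P5 lowest (3.43%, against 8.77% of all tested). The fit on the 6 WT arrays alone called 5583 probes.

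Some probes turned back between P3 and P5, and those named here were picked after their values were seen, as the largest such gaps with separated arrays. Z00056753-1 read 5.27 and 4.46 at P1, 0 on both P3 arrays and 3.73 and 3.17 at P5, with neither P3 array above background. Its Cy3 signal at P3 was at least 2.22-fold lower than at P1 and at least 1.36-fold lower than at P5. On the Tabby P3 arrays it was above background, at 2.28 and 4.86. Z00020497-1 dipped in both genotypes, with 2.67 and 2.47 at P1, -0.40 and 0.51 at P3, and 2.59 and 3.62 at P5 in WT. The Tabby arrays of Z00020497-1 read 1.73 and 1.90, then 0.33 and 0.19, then 2.81 and 2.88. In the other direction, Z00029418-1 read -0.28 and -0.45 at P1, 2.20 and 1.53 at P3, and -0.41 and 0.33 at P5, and was above background at P3 alone. Since P3 was 1 slide, a turn at P3 cannot be told apart from that slide.

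Most of the large neonatal changes were also seen in Tabby footpads, which form no glands. Tabby arrays share no array with the WT course, but they share the slides. For P5 against P1, Tabby had 3856 probes called higher (13.2% of those tested) and 3637 called lower (12.4%). Of the 710 probes that rose at least 2-fold in WT, 467 were called higher in Tabby and 6 lower, and of the 690 that fell at least 2-fold, 481 were called lower and 0 higher. At least 2-fold Tabby rises covered 49.3% of the WT risers, which is 67.8% of the Tabby list, and falls covered 47.4% of the WT fallers, which is 69.6% of the Tabby list. The median P5 minus P1 difference was 1.46 in WT and 1.03 in Tabby for the risers, and -1.37 and -1.02 for the fallers. The WT medians are set in part by the choice of the lists, so the gap between the genotypes is not a test.

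**Figure D3:**
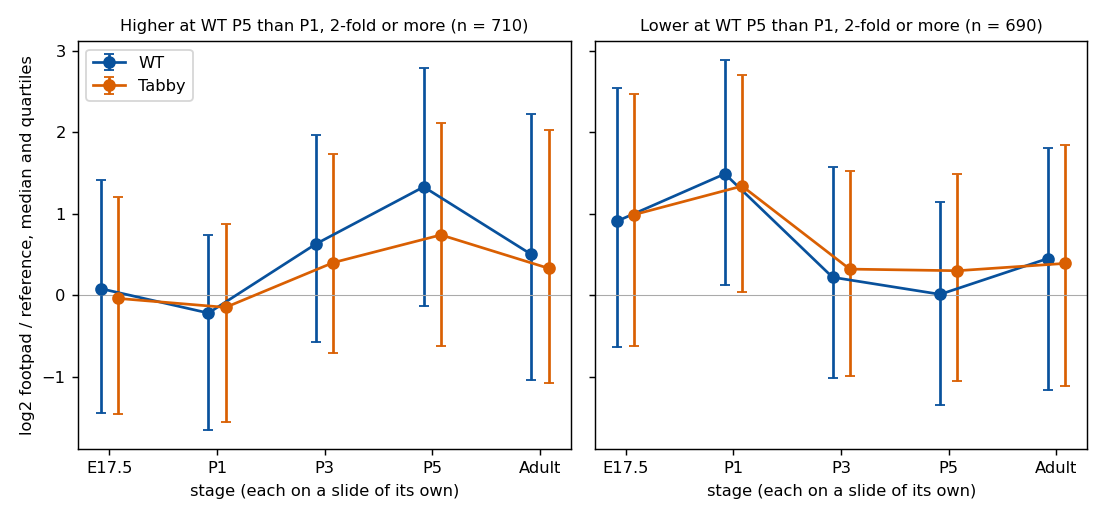
Median log2 ratio with quartile bars (y axis) over the 5 stages (x axis) for the 710 probes at least 2-fold higher and the 690 at least 2-fold lower at WT P5 than at WT P1, WT in blue and Tabby in orange. WT P1 and P5 chose the lists, while the other points did not. The risers had a WT median of 0.63 at P3 and 0.50 in adults, and the fallers 0.22 and 0.45.

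The other stages, which did not choose these lists, give levels to set beside P1 and P5. The risers had a median log2 ratio of -0.22 at WT P1, 0.63 at P3 and 1.33 at P5, beside 0.08 at E17.5 and 0.50 in adults. The fallers had 1.49 at WT P1, 0.22 at P3 and 0.01 at P5, beside 0.91 at E17.5 and 0.45 in adults. Over all tested probes the medians lay between -0.05 and -0.01 in all 10 groups. The median of the fallers had thus reached near its P5 level by P3, while that of the risers stood about midway. E17.5 and adult arrays were scanned on other days, and these levels were not tested.

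**Figure D4:**
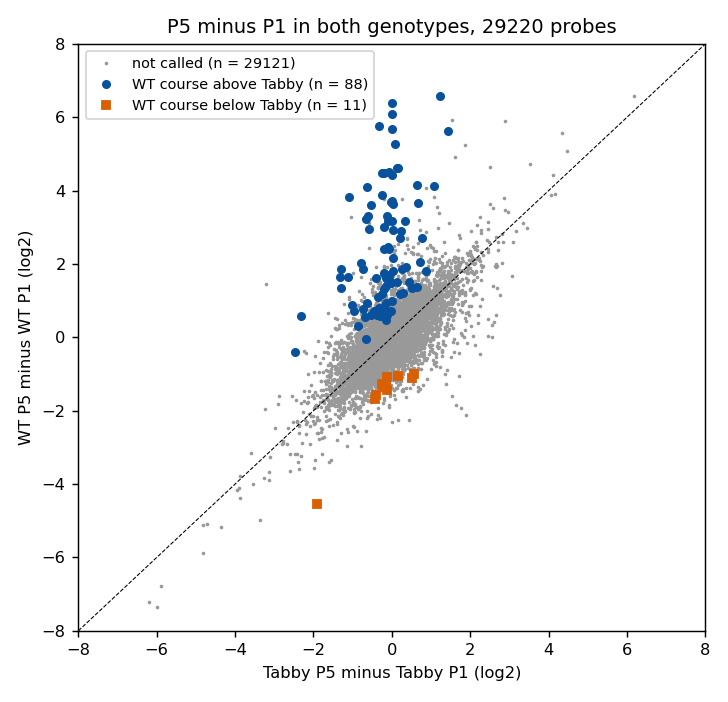
P5 minus P1 difference in WT (y axis) against that in Tabby (x axis), both in log2 units, for each tested probe. Blue circles and orange squares mark the 88 and 11 probes whose course differed between the genotypes, the dashed line marks equal change, and most blue circles lie near 0 on the Tabby axis.

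For a small group of probes the change from P1 to P5 differed between WT and Tabby. The difference between the 2 genotypes' P5 minus P1 changes was called for 99 probes (0.339% of those tested, 2034 at an unadjusted p under 0.05), with the WT course above the Tabby course in 88 and below in 11. Of the 88, 84 were called higher at P5 than at P1 in WT and 0 lower, whereas in Tabby 14 were called higher and 21 lower. Of all 29220 tested probes, 4932 were called higher and 4524 lower in WT. In Tabby 13.2% of all tested probes were called higher and 12.4% lower. Their median change was 1.86 in WT and -0.11 in Tabby. These probes were chosen by the gap between the courses, so their choice favours such a contrast between WT and Tabby. In WT the median difference from P1 was 0.40 at P3, and 47 of the 88 rose at least 2-fold from P3 to P5. The choice by P5 favours this. Of all 29220 tested probes, 146 were called and at least 2-fold higher at P5 than at P3. At P5 both WT arrays lay above both Tabby arrays for all 88, which the choice of the probes favours. WT arrays held the first 2 places on each slide and Tabby arrays the other 2, so genotype and place on the slide cannot be told apart. The call count was 55 without WT P5 replicate 1, 64 without Tabby P1 replicate 1, and 57 or 56 without 1 of the Tabby P5 arrays.

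Among probes measured on every array, Z00047655-1 and Z00041252-1 differed by 5.36 ± 0.13 and 5.18 ± 0.38. Z00053387-1 differed by 6.38 in the ratio, but all Tabby arrays and both WT P1 arrays were at 0, and at P5 the WT Cy3 signal was at least 4.53-fold that of Tabby. With normexp and loess its courses differed by 2.30 and in Cy3 alone by 2.12, both called. Z00056665-1 was at 0 on the WT P1 arrays, at 1.77 and 0.92 at P3 and at 5.78 and 5.75 at P5, while Tabby P5 arrays read -0.07 and -0.59. No Tabby array was above background, and the P5 signal was at least 3.1-fold higher in WT, with a difference between courses of 6.10 in the ratio, 1.98 with normexp and loess and 1.59 in Cy3 alone. Z00053032-1 and Z00056321-1 were at written zeros on all 6 Tabby arrays, and at P5 their Cy3 signals were at least 3.79-fold and at least 4.3-fold higher in WT. The courses of Z00053032-1 differed by 6.09 in the ratio and by 2.04 in Cy3 alone. For Z00041252-1, WT P5 stood at 4.93 and 4.80 and Tabby P5 at 0.03 and -0.44, with a limma adjusted p of 0.000887 for the difference between courses. Zeros bear on 13 of the 99 calls, and all 13 are among the 48 differences of at least 4-fold. For each of these 5 probes both WT P5 arrays thus stood above every other neonatal array. Z00056665-1, Z00053032-1 and Z00056321-1 entered the test by their WT P5 arrays alone, which favours this.

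The overlapping pair of risers behaved alike in WT and less so in Tabby. Z00047655-1 read -0.20 and -0.31 at Tabby P1, -0.41 and -0.35 at P3, and 0.88 and 1.08 at P5, and its course differed by 5.36 ± 0.13 (limma adjusted p = 1.32e-06). Z00025964-1 reached 2.41 and 2.78 at Tabby P5 and differed by 3.02 ± 0.56, which was not called (limma adjusted p = 0.13). At E17.5 the 2 WT arrays disagreed on both probes, at -0.03 and 5.46 for Z00025964-1 and -1.18 and 2.87 for Z00047655-1. Tabby E17.5 arrays read 4.41 and 3.71 for Z00025964-1, both above background, and 0.79 and -0.31 for Z00047655-1. In adult WT skin they read -0.60 and -0.54, and 0.35 and 0.61.

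High P5 levels of the 88 probes were often not kept in the adult. By the WT means, 53 of the 88 (60.2%) had P5 as the highest of the 5 stages, against 9.83% of all tested probes, and the choice of the probes by P5 favours this. For 53 of the 88 the adult mean was at least 2-fold below P5, against 322 of the 710 WT risers and 14.7% of all tested probes. High P5 values helped to choose both the 88 and the 710, which favours a lower adult mean in them. Z00041252-1 read -0.48 and -0.17 in adult WT skin, Z00053032-1 was at 0 on both adult arrays, and Z00053387-1 was at 0 and 0.67. The adult level of Z00041252-1 was thus close to that of P1. Z00053032-1 and Z00053387-1 had no WT array above background at P1 or in adults, so their levels there were not measured.

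The opposite pattern was called for 11 probes, and those named for it were less stable. Probes entered the test by signal on WT arrays, so those with signal in Tabby alone were left out. This favours a WT course above the Tabby course. With no filter on signal, 80 of 92 called probes had the WT course above. Z00072860-1 read 4.50 and 4.58 at WT P1 and 0 on the 4 later WT arrays, while Tabby arrays read 4.60 and 4.11 at P1, 0 at P3, and 2.41 and 2.49 at P5. The courses differed by -2.63 ± 0.19 (limma adjusted p = 0.000887), but by -0.43 (adjusted p = 0.43) with normexp and loess on the mean signals and by -0.38 (adjusted p = 0.87) in Cy3 alone. Z00025066-1 read 0.59 and 0.55 at WT P1 and -0.53 and -0.58 at P5, against 0.82 and 1.14, then 1.52 and 1.45, in Tabby. That difference, -1.63 ± 0.25, had a limma adjusted p of 0.0498 and was lost in most alternatives. Z00066358-1 read 2.62 and 3.01 at WT P1 and 1.70 and 1.94 at P5, against 1.77 and 1.56, then 2.16 and 2.29, in Tabby, with -1.56 ± 0.22 (limma adjusted p = 0.0364), also lost in most.

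**Figure D5:**
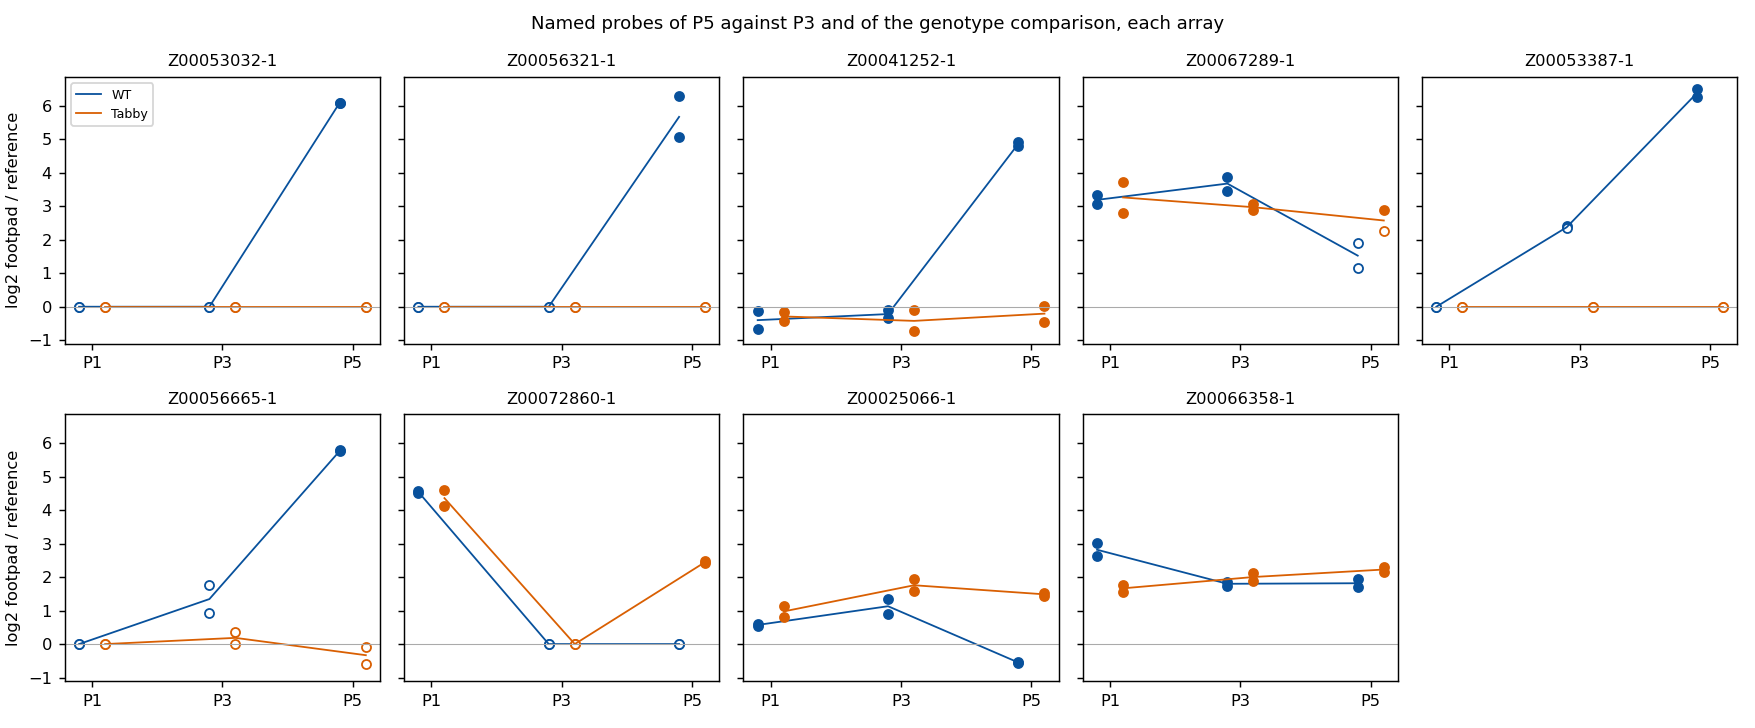
Log2 ratio of footpad over reference (y axis) on each array at P1, P3 and P5 (x axis) for the probes named for P5 against P3 and for the genotype comparison. Points, fill and colours are as for the probes with the largest changes from P1, and points at exactly 0 are spots with no measured signal. Z00041252-1 stood at 4.93 and 4.80 on the WT P5 arrays and between -0.74 and 0.03 on all others shown.

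The common reference offers a check on the slides, since its labelled source is the same on all arrays. Fitted alone in the same way, the Cy5 channel gave 127 calls for P3 against P1 (0.435% of probes), 192 for P5 against P1 (0.657%) and 40 for P5 against P3 (0.137%). Cy3 alone gave 7756, 8173 and 1168. For the 1400 probes called at least 2-fold between P5 and P1, the median absolute difference was 0.75 in Cy3 and 0.06 in Cy5. Of these, 1386 had the same sign in Cy3 as in the ratio. The ratio that chose them is made of the same 2 signals, which favours this agreement, so it is not a separate check. The Cy3 signals carry an offset of 50 that shrinks the changes of dim probes. Slide effects that touch Cy3 alone were not tested by this.

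Probes that overlap in sequence gave a further check within the arrays. Of the tested probes, 1296 formed 621 groups whose members share at least 30 bases with another member. In 183 groups at least 2 members were called between P5 and P1, and in 0 of these did 2 called members go in opposite directions. In 60 groups 1 member alone was called, and in 378 groups 0 members were. Over all tested probes, 32.4% were called. Members share bases and are read on the same arrays, which favours agreement, so this does not tell stage from slide. The pair led by Z00025178-1 rose by 4.47 and 4.49, and the pair led by Z00049275-1 by 3.76 and 3.83. Differences for the pair led by Z00043062-1 were -4.11 and -3.77, and those for the pair led by Z00032214-1 were -4.39 and -2.87. These pairs were picked after their values were seen.

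A few probes could be tied to genes, because they lie at the very start of a transcript. In the RefSeq promoter windows of mouse assembly GRCm38.p6, 143 probes shared at least 30 of the 50 transcribed bases, 138 of them with 1 gene, and 59 of those were tested. Between P5 and P1, 9 of the 59 were called, 6 higher and 3 lower, or 15.3% against 32.4% of all tested. Their median difference was 0.08, against 0 over all probes. This route to names was chosen after the files were seen.

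Those called higher include Gstp1, a glutathione transferase that detoxifies electrophiles, and Sec61b, a subunit of the channel through which new secretory proteins enter the endoplasmic reticulum. Capitals mark the bases that lie in the transcribed part of the window, chr19:4037863-4038162 on the minus strand for Gstp1 and chr4:47474411-47474710 on the plus strand for Sec61b.
Gstp1: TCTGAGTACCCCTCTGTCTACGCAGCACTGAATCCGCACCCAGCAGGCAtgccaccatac
Sec61b: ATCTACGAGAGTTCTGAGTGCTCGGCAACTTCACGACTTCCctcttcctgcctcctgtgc
Gstp1 read -2.86 and -3.06 at P1, -2.31 and -2.29 at P3, and -2.06 and -2.15 at P5. The rise of 0.85 ± 0.10 was called by limma (adjusted p = 0.00076), though its close copy Gstp2 may share the probe's signal. Sec61b read -1.44 and -1.28, then -0.64 and -0.75, then -0.74 and -0.80, a rise of 0.59 ± 0.07 (limma adjusted p = 0.00107) that was already there at P3. The Tabby P5 minus P1 differences of Gstp1 and Sec61b were 0.67 and 0.42, both called.

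Also higher at P5 were Kif22, a kinesin that moves chromosomes in mitosis, by 0.89 ± 0.19, Mrps21 of the small mitochondrial ribosome subunit by 0.60 ± 0.07, and Rps27l, a ribosomal protein of the S27 kind, by 0.37 ± 0.11. Kif22 read -2.65 and -3.11 at P1, -1.74 and -2.19 at P3, and -1.91 and -2.08 at P5, with no overlap between P1 and the later arrays. In Tabby, Mrps21 was called with 0.44, while Kif22 with 0.51 (limma adjusted p = 0.0821) and Rps27l with 0.10 (adjusted p = 0.554) were not. Among those lower, Crxos read 0.78 and 0.79 at P1, 0.25 and 0.26 at P3, and 0.22 and 0.19 at P5, a difference of -0.58 ± 0.06 (limma adjusted p = 0.000457). The differences were -0.55 ± 0.14 for Arhgap27os3 and -0.37 ± 0.09 for D8Ertd738e. In Tabby, Crxos was called with -0.62, while Arhgap27os3 with -0.19 (limma adjusted p = 0.374) and D8Ertd738e with -0.05 (adjusted p = 0.733) were not, and none of the differences between courses was called for these genes. Acta2, the smooth muscle actin that also marks myoepithelial cells of glands, was not called. It read 0.88 and 0.12 at P1, 0.20 and -0.11 at P3, and 1.37 and 0.75 at P5, a difference of 0.56 ± 0.29 from P1 (limma adjusted p = 0.176), with arrays that overlapped.

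In base composition the probes of large change lay close to the rest. The median GC content was 45% for the risers, 43.3% for the fallers and 45% for all tested probes. The letters AATAAA, a signal found near transcript ends, occurred on the probe's own strand in 8.87% of risers, 10.4% of fallers and 7.63% of all tested. Among the named probes, GC content ran from 23.3% for Z00053032-1 to 68.3% for Z00066358-1.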

How the data were processed

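Agilent Feature Extraction 9.5.1.1 read the spots, per the file headers. Each dye's mean signal, local background and processed signal were deposited as an intensity. The deposited ratio is the log10 of Cy5 (reference) over Cy3 (footpad), background-subtracted and dye-normalized by the authors' software. It was turned into a log2 ratio of footpad over reference. Control spots and outlier spots were left out, and spots of 1 probe were averaged. A probe entered if Cy3 was well above background on 2 or more of the 6 WT arrays.

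One limma model (version 3.58.1, R 4.3.3) was fitted to the 12 arrays of P1, P3 and P5, WT and Tabby, with 6 group means, 6 residual and 1.91 prior degrees of freedom. Tests were two-sided with a threshold of 0.05 after Benjamini-Hochberg adjustment over all probes tested. The fit was tested on simulated data. Up to 3 probes per direction and comparison were named, those with the largest difference among called probes, with separated arrays and both arrays of the higher group above background. For the genotype comparison being called was enough. The groups and tests were chosen with earlier results of these data known. Gene lists and cell type markers drawn up for named genes were not usable, since 0 of the 42006 probes carried another name.

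Bounds ("at least") compare Cy3 signals after normexp (offset 50), loess and Aquantile with the lowest signal above background on each array. They are open to dye bias, since dyes were not swapped.

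The authors' deposited value table, on the log10 scale, was an alternative. In replicate order, its WT columns had medians of 2.57 and 2.57 at P1, 2.57 and 2.58 at P3, and 2.58 and 2.59 at P5. Its Tabby columns had 2.57 and 2.57, 2.58 and 2.57, and 2.57 and 2.58 at these stages. Within a probe it differed from the array files' footpad over reference ratio by a constant, with a median SD of 3e-05 over 25012 probes, and by under 0.001 for 74.2%. Scale and direction are thus settled. The centring is a constant per probe for these, and unknown for the rest.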

Additional observations from a re-analysis of the deposited data

Results flagged for a closer look

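The P5 minus P1 change differed between WT and Tabby, by the test of the difference itself, for 99 probes. Those named for it had differences (WT change minus Tabby change, log2) of 6.38 for Z00053387-1, 6.10 for Z00056665-1 and 6.09 for Z00053032-1 upward, and of -2.63 for Z00072860-1, -1.63 for Z00025066-1 and -1.56 for Z00066358-1 downward. The 3 upward values stand against Tabby and WT P1 arrays that were not above background, and in Cy3 alone they were 2.12, 1.59 and 2.04. At P5 the WT Cy3 signals of these 3 were at least 4.53-fold, 3.1-fold and 3.79-fold those of Tabby. In Cy3 alone the downward values were -0.38, -1.67 and -0.46, none of them called. With 2 arrays per group, no group was large enough for a check for single outlying arrays.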

How the results depend on the processing

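The 5 counts of called probes kept within 1.5 times of the value reported with Cy3 alone, the deposited value table, no filter on signal, probes above background on all 6 WT arrays, a trended robust spread, and probes above background in both dyes on all 12 arrays. The last setting was chosen after seeing the data. On the 6 WT arrays alone the counts were 5595 (P3 minus P1), 6038 (P5 minus P1), 139 (P5 minus P3) and 5583 (F test). The P5 minus P3 count was 1624 with normexp and loess on the mean signals, 482 with all 20 arrays and 595 with arrays brought to 1 scale. The count for the difference between the WT and Tabby courses was 174 with normexp and loess and 65 with all 20 arrays, of which 98.5% had the WT course above, beside 88.9%. Leaving out 1 array gave 4698 to 10695 calls for P3 minus P1, 5042 to 11292 for P5 minus P1, 145 to 1727 for P5 minus P3, 6997 to 12127 for the F test and 55 to 120 for the difference between courses. A stage left with 1 array is assumed to vary like the others. With the replicate block the counts were 8676, 9059, 696, 9561 and 78. The labels do not say that a replicate number is shared between stages, and the differences of replicate 1 minus 2 correlated between groups by -0.0948 to 0.132, so the block was not used. No named difference changed sign in any setting run. The calls of Z00025066-1 and Z00066358-1 were each lost in 14 settings, that of Z00067289-1 in 5 and that of Z00072860-1 in 2, and the other named calls in 0. Counts of members of the gene lists were not run, since no probe carries a gene name. With 2 arrays a stage and 1 slide a stage, small differences and slide effects are the limits.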
